A study of Mus musculus with 16 samples.

Results

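The genes described here are the mouse zinc finger genes whose symbol is Zfp followed by digits alone and that were expressed in both blood progenitor populations of the study. The mean normalized count had to be 50 or more in each of the authors' deposited tables. Of 333 Zfp symbols among the 23420 symbols of a table, 251 met the rule and 82 did not. Within the family the genes were chosen by these means, so the levels below are a description. The family itself was singled out with earlier results of these data known. Just inside the threshold were Zfp459 with a mean of 52.4 in granulocyte-monocyte progenitors (GMP), Zfp647 with 54.1 in multipotent progenitors (MPP) and Zfp108 with 57.7 in MPP, and just outside were Zfp939 with 49.5, Zfp787 with 45.5 and Zfp82 with 44.1 as the smaller of both means, in the authors' deposited tables.

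RNA was measured in MPP, early progenitors that can still form several blood lineages, and in GMP, which are committed to granulocytes and monocytes. Both were sorted from the bone marrow of mice aged 40 weeks, either Tet2fl/fl, labelled WT and carrying the floxed allele of Tet2, or Tet2-/-, labelled Tet2KO. Each of the 4 groups has 4 libraries from individual mice, and 3 mice per genotype gave both populations. What drove the deletion of the allele is not given in the sources used here. Levels of single libraries were not analysed here: each level is a mean over the 8 libraries of a population, and each log2 fold change, standard error (SE) and adjusted p-value of a gene is the DESeq2 value of the authors' deposited table.

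C2H2 zinc fingers are small protein folds in which cysteines and histidines hold a zinc ion, and a row of them reads a stretch of DNA. In mammals many such proteins also carry a KRAB box, which recruits the corepressor Trim28 and, through it, the histone methyltransferase Setdb1, to silence chromatin, above all at transposable elements and some imprinted genes. Many of their genes lie in runs of neighbouring copies. TET2, the enzyme missing in the Tet2KO mice, oxidizes methylated cytosine in DNA and is often mutated in human blood malignancies.

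The name was borne out by the proteins. Of the 249 genes with an annotated coding transcript, 243 encoded at least 1 C2H2 finger, with a median of 11 fingers and up to 37. The 6 without a match to the spacing pattern used for fingers, which may miss some, were Zfp36, Zfp259, Zfp330, Zfp703, Zfp839 and Zfp935. Zfp36 (tristetraprolin) binds RNA through fingers of another type. A KRAB box was found in 104 proteins with a strict sequence pattern and in 132 with a broader one chosen after the values were seen. A protein without a match may still hold such a box. The genes lie on 20 chromosomes, 57 of them on chromosome 7.

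As checks of the series, Tet2 as a whole gene had a higher level in Tet2KO than in WT in the authors' deposited tables (log2 fold change 0.44 in MPP, SE 0.0992, adjusted p = 0.00551, and 0.35 in GMP, SE 0.0748, adjusted p = 0.000409). Without values per exon this checks no label, and all directions given here rest on how the libraries were labelled. Kit, which marks both gates, had means of 7542 in MPP and 6397 in GMP, Ly6a (Sca1) 266 and 19.5, Cd48 1026 and 1270, and Fcgr3 (CD16) 19.3 and 525 in the authors' deposited tables. Of 40 markers of other blood, stromal and endothelial cells, 24 reached a mean of 10 in MPP and 22 in GMP. Of those, 12 in MPP and 9 in GMP were marked as outliers by the authors and carry no p-value. Among all genes with a mean of 10 or more, 3.50% in MPP and 2.66% in GMP were so marked. Of the 12 markers tested in MPP, 2 were called higher and 0 lower, beside 0.616% of all tested genes called. Of the 13 tested in GMP, 4 were called higher and 2 lower, beside 3.96%. The called markers included Pdgfrb, which rose in both populations, Csf1r, Pf4 and Vwf, which rose in GMP, and Cma1 and Gata2, which fell in GMP. The part of such cells in the values below was not tested, and in sorted bulk samples fewer cells of a type and less RNA per cell cannot be told apart.

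The Zfp genes covered a wide range of levels. Their means spanned 54.1 to 6162 in MPP (median 272) and 52.4 to 8406 in GMP (median 241) in the authors' deposited tables, and together they made up 1.42% of the summed means in MPP and 1.18% in GMP. The highest means in both tables were those of Zfp106, an RNA-binding protein (6162 and 8406), Zfp871 (6089 and 5636), Zfp207, a partner of the spindle checkpoint protein Bub3 (5712 and 6980), Zfp292 (4551 and 3447) and Zfp704 (3777 and 3605). Per 1000 bases of transcript Zfp207 led, with a mean of 3657 in MPP and 4469 in GMP, ahead of Zfp106 with 678 and 925.

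Most Zfp genes took a smaller share of the GMP table than of the MPP table. As a share of the summed means of its table, 220 of 251 were lower in GMP and 31 higher, with a median log2 ratio of GMP over MPP of -0.35, beside -0.11 over all 9536 genes with a mean of 50 or more in both. The tables were normalized separately, so these ratios are a description with no test. A share also depends on the highest genes of its table. The highest mean of a tested gene was 999477 of a sum of 11033900 in GMP, and 73903 of 9436210 in MPP. The part of such genes in the ratios was not tested. The lowest ratio was that of Zfp831, with means of 767 in MPP and 113 in GMP. It is marked as an outlier in MPP, so single libraries may weigh heavily in that mean. Next came Zfp36, whose product drives decay of AU-rich messenger RNAs (441 and 162), Zfp827 (247 and 91.6) and Zfp608 (2570 and 1232), in the authors' deposited tables. Zfp521 (Evi3), a nuclear factor of immature blood and B lymphoid cells, had means of 797 and 422. The largest ratios toward GMP were those of Zfp568, a KRAB protein that represses an Igf2 transcript in the mouse embryo (550 and 1142), and Zfp703 (83.7 and 164), in the authors' deposited tables. Zfp831, Zfp827 and Zfp608 are named here for their ratio, which was seen first.

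In MPP no Zfp gene passed the adjusted p of 0.05, while 0.616% of all 11859 tested genes did, 0.346% higher and 0.27% lower in Tet2KO. Of 250 tested Zfp genes, 15 had an unadjusted p under 0.05, or 6.00% against 9.72% of all tested genes. All 15 were higher in Tet2KO, while all tested genes divided into 4.92% higher and 4.80% lower. The largest log2 fold changes over SE were those of Zfp882 (0.46, SE 0.146, adjusted p = 0.135), Zfp609, a partner of the cohesin loader Nipbl (0.37, SE 0.121, adjusted p = 0.159), Zfp462, a large multi-finger protein of development (0.58, SE 0.199, adjusted p = 0.199), Zfp111 (0.39), Zfp11 (0.49) and Zfp654 (0.21) as log2 fold changes of the authors' deposited table. At the other end were Zfp318, needed for IgD expression in B cells (-0.19), Zfp446 (-0.38), Zfp870 (-0.28), Zfp27 (-0.23), Zfp41 (-0.20) and Zfp740 (-0.19), none of them called in the authors' deposited table.

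Among the 249 Zfp genes tested in GMP, 6 were called, all higher in Tet2KO. That is 2.41% of them, while 3.96% of all 11503 tested genes passed. Split by direction the background was 1.75% called higher and 2.22% called lower, so the share of Zfp genes called higher lay near the background and none was called lower. An unadjusted p under 0.05 was reached by 29 Zfp genes, or 11.6% against 16.4% of all tested genes. By direction, 28 were higher (11.2% against 7.73% of all tested genes) and 1 was lower (0.402% against 8.68%).

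Zfp235 had the largest change in GMP, with a log2 fold change of 0.59, SE 0.160 and an adjusted p of 0.0126 by the authors' deposited table. It lies on chromosome 7 (24134169 to 24143241, plus strand, mm10) and encodes 17 fingers. Its protein has a KRAB box by the broader pattern but not by the strict one. In MPP its log2 fold change was 0.04 (SE 0.204) in the authors' deposited table.

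Zfp521 rose by 0.43 in GMP (SE 0.119, adjusted p = 0.0153) and had a value of 0.35 in MPP (SE 0.146, adjusted p = 0.372) in the authors' deposited tables. Its 27 fingers are encoded on chromosome 18 (13687013 to 13972787, minus strand, mm10).

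Zfp462 (chromosome 4, 54945048 to 55083563, plus strand, mm10), with 34 fingers, rose by 0.56 in GMP (SE 0.163, adjusted p = 0.0225), and its value in MPP was about as large, in the authors' deposited tables. The remaining calls in GMP were Zfp629 (0.25, SE 0.0786, adjusted p = 0.0424), Zfp329 (0.29, SE 0.0916, adjusted p = 0.0453) and the KRAB gene Zfp398 (0.30, SE 0.0946, adjusted p = 0.0453), by the authors' deposited table. Their values in MPP were 0.16, -0.06 and 0.03 with SEs of 0.119, 0.142 and 0.143 in the authors' deposited table. None of the 6 passed once the statistic was scaled by the spread over all genes. Of the 6, Zfp629, Zfp329 and Zfp398 also missed the threshold when the adjustment covered every gene with a fold change.

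The lowest values in GMP were those of Zfp654 (-0.22, SE 0.0953), Zfp35 (-0.12), Zfp644, a partner of the H3K9 methyltransferases G9a and GLP (-0.15), Zfp131, a BTB protein (-0.13), Zfp830, needed by mouse blood stem cells (-0.14), and Zfp740 (-0.10) in the authors' deposited table. None was called, and the smallest adjusted p among them was 0.204.

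**Figure D1:**
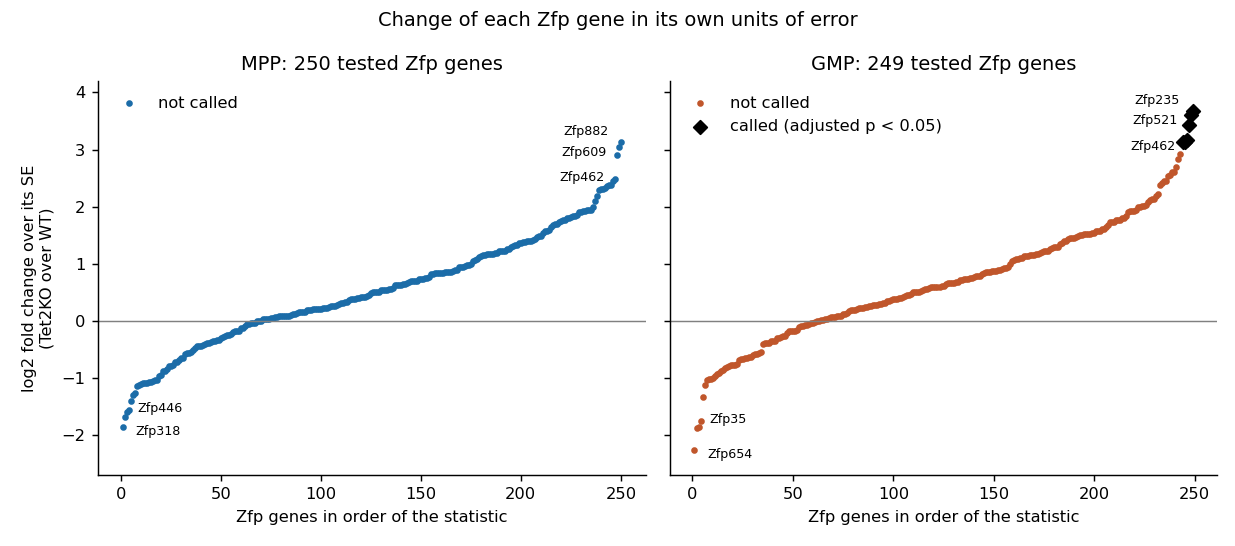
Log2 fold change, Tet2KO relative to WT, divided by its SE (y axis) for each tested Zfp gene, in order of that value (x axis), in MPP (left, 250 genes) and GMP (right, 249 genes). The points cross 0 well left of the middle in both panels, and the 6 called genes of GMP (diamonds) sit at the upper end.

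As a group the Zfp genes lay above 0 in both populations, by small amounts. In MPP 181 of 250 tested genes were above 0 and 69 below (72.4% above), with a median log2 fold change of 0.07. In GMP 187 of 249 were above 0 and 62 below (75.1% above), with a median of 0.08. Of the other tested genes with a mean of 50 or more, 47.0% of 9520 were above 0 in MPP and 46.3% of 9230 in GMP, each with a median of -0.01. Such a median change is under the median SE of one Zfp gene, 0.158 in MPP and 0.130 in GMP. The smallest called change of any gene was 3.61 SEs in MPP and 3.09 SEs in GMP.

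Dividing each log2 fold change by its SE gives the statistic used below, and the median was 0.490 in MPP and 0.616 in GMP for Zfp genes, beside -0.0835 and -0.126 for the others. The Zfp values were also packed more tightly, with an SD of the statistic of 0.967 in MPP and 1.05 in GMP, against 1.20 and 1.51 for the others. Neither tail of the Zfp genes reached far: the log2 fold changes lay between -0.38 and 0.58 in MPP and between -0.22 and 0.59 in GMP in the authors' deposited tables. Genes of one family and one set of mice are not independent, and the family was singled out with earlier results of these data known, so no p is given for it.

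**Figure D2:**
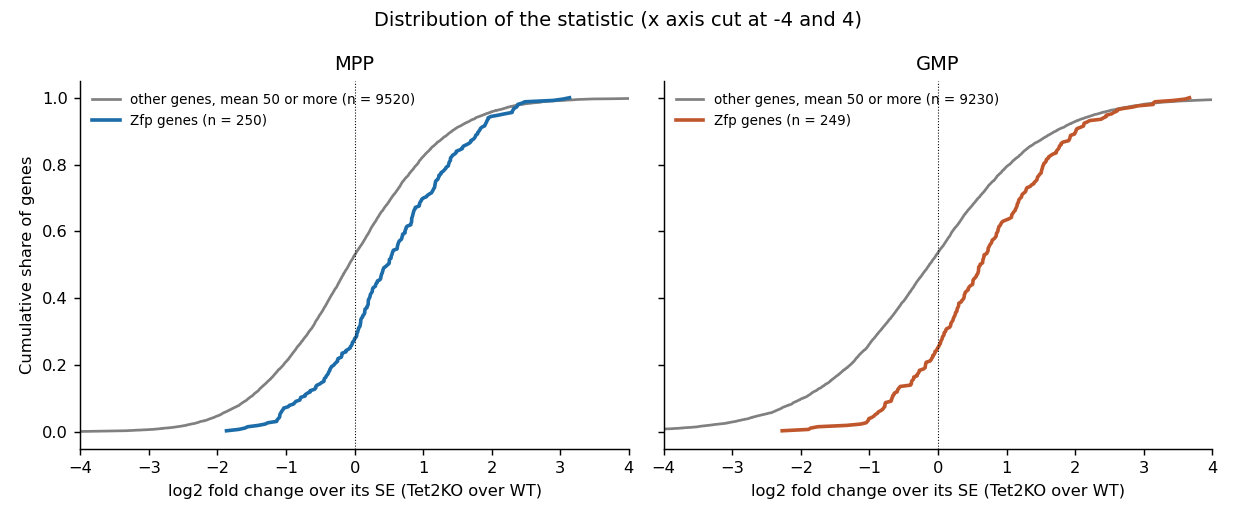
Cumulative share of genes (y axis) by the statistic (x axis), for Zfp genes (coloured) and other genes with a mean of 50 or more (grey). The Zfp curve lies to the right of the grey curve through the middle of both panels, with medians of 0.490 in MPP and 0.616 in GMP, and meets it at the upper end.

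The Zfp genes lay higher at every level of expression. Tested genes with a mean of 50 or more were put in 10 classes of equal number by their mean, and in all 10 classes of both populations the median statistic of the Zfp genes was above that of the other genes. Taken against the other genes of its own class, the median Zfp gene lay higher by 0.602 in MPP and by 0.708 in GMP. In GMP the statistic of the other genes went down with the mean, from a median of 0.269 in the lowest class to -0.541 in the highest, while the Zfp genes were at 0.368 and 0.676 in those classes, from 31 and 6 genes.

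Other properties of the transcripts moved with the statistic too. Zfp proteins were longer than those of other genes with a mean of 50 or more in both tables (median 583 against 475.5 residues), and their transcripts had less GC (45.0% against 49.8%). Among the other genes the median statistic went up with protein length, with -0.805 in the shortest class and 0.401 in the longest in MPP, and -0.580 and 0.426 in GMP. With transcript GC the populations differed. The other genes were at 0.234 in the lowest GC class and -0.0758 in the highest in MPP, and at -0.578 and 0.354 in GMP. Against genes of the same protein length class the median Zfp gene was higher by 0.465 in MPP and 0.700 in GMP. The Zfp median was below that of the other genes in classes 2 and 4 in MPP, from 6 and 8 Zfp genes, and in class 4 in GMP, from 7, counted from the shortest. With classes by transcript length the values were 0.510 and 0.746, and with classes by GC content they were 0.502 and 0.943. These classes were added after the values were seen. Each was used alone, and the part of length and GC in combination was not tested.

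**Figure D3:**
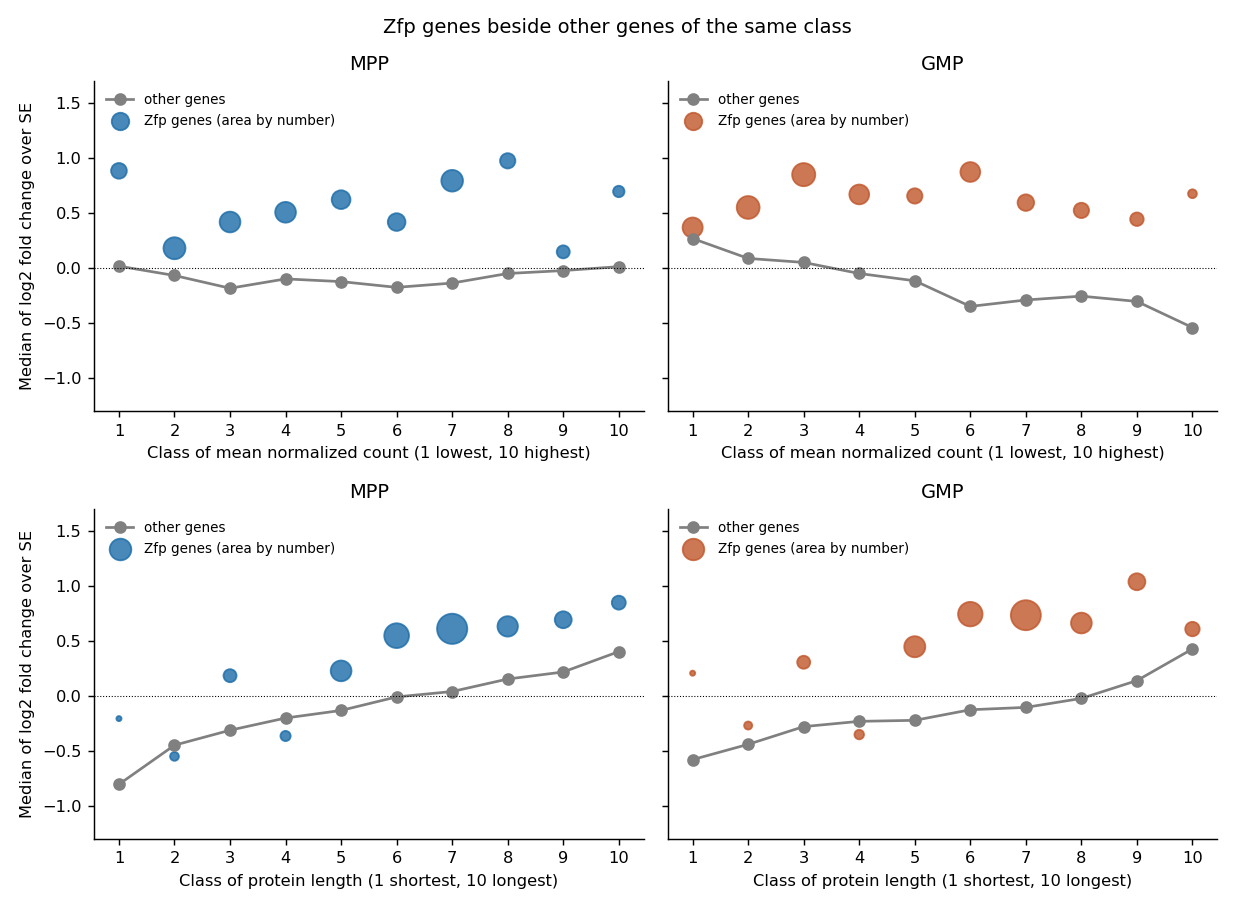
Median statistic (y axis) of Zfp genes (coloured, area by their number) and other genes (grey) in 10 classes by mean normalized count (upper row) and by protein length (lower row), in MPP (left) and GMP (right). Zfp genes lie above the others in all 10 classes by mean, and in 8 of 10 classes by protein length in MPP and 9 of 10 in GMP.

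Genes for proteins with many fingers had the higher values. With 1 to 4 fingers the median statistic was 0.198 in MPP (29 genes) and -0.00245 in GMP (30 genes), and in GMP 15 were above and 15 below 0. With 13 or more fingers it was 0.737 (84 genes, 75 of them above 0) and 0.853 (83 genes, 68 above 0). Between them lay the genes with 5 to 8 fingers, at 0.201 and 0.360, and those with 9 to 12, at 0.502 and 0.738. Proteins with more fingers are longer, at a median of 508 residues for 1 to 4 and 682 for 13 or more in MPP. Against other genes of their own protein length class the medians of these outer groups were 0.253 and 0.633 in MPP and 0.152 and 0.976 in GMP. Differences between the finger groups were not tested. Of the 83 genes with 13 or more fingers tested in GMP, 4 were called, all higher (4.82%, beside 3.96% of all tested genes called and 1.75% called higher).

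**Figure D4:**
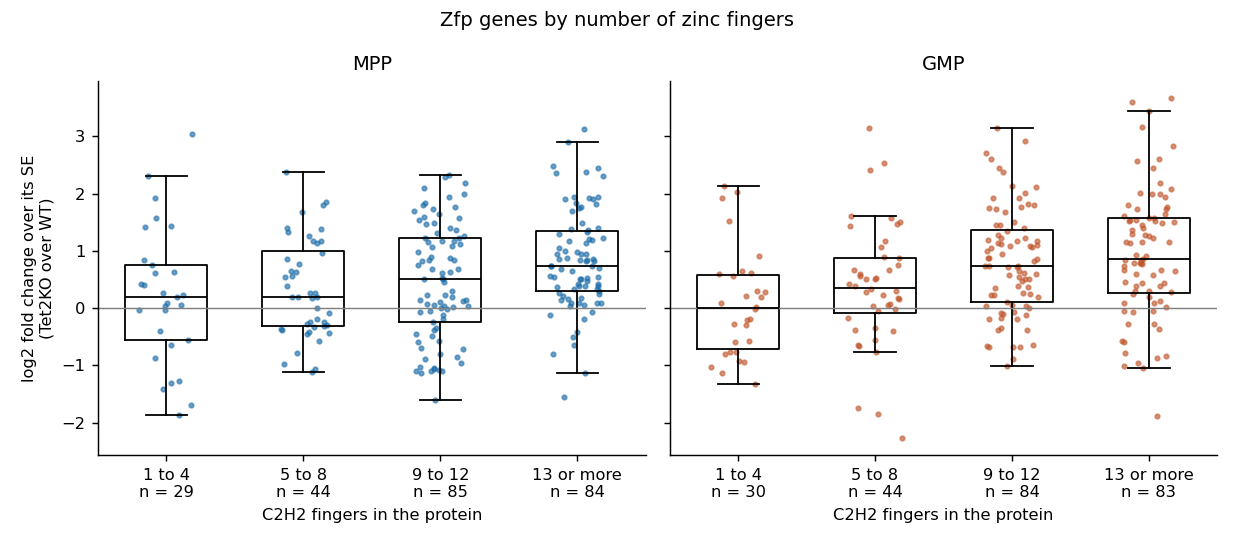
Statistic of each Zfp gene (points, y axis) by the number of C2H2 fingers in its protein (x axis), in MPP and GMP; boxes give the median and quartiles, and whiskers reach to the farthest point within 1.5 box lengths. With 1 to 4 fingers the medians are 0.198 in MPP and -0.00245 in GMP, and with 13 or more they are 0.737 and 0.853.

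Genes with and without a KRAB box were both above 0. By the strict pattern the median statistic was 0.535 with the box and 0.408 without it in MPP, and 0.731 and 0.588 in GMP. By the broader pattern it was 0.622 and 0.332 in MPP, and 0.749 and 0.504 in GMP. Against other genes of their own class by mean, the strict groups lay higher by 0.637 with the box and 0.557 without it in MPP. In GMP they lay higher by 0.696 with it and 0.713 without it, so the order turned over. For the broader pattern these values were 0.689 and 0.440 in MPP, and 0.800 and 0.579 in GMP. Differences between genes with and without the box were not tested. Of the KRAB genes with a known role in the mouse, Zfp568 had a log2 fold change of -0.11 in MPP and 0.00 in GMP, Zfp445, which guards imprinted methylation, 0.01 and 0.07, and Zfp809, which silences retroviral DNA, 0.06 and 0.03, in the authors' deposited tables.

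Genes of the machinery through which KRAB proteins act lay on both sides of 0. Of 36 genes of a list of corepressors, histone and DNA methyltransferases and heterochromatin proteins, 34 were tested in MPP and 33 in GMP, and none was called in either, beside backgrounds of 0.616% and 3.96%. An unadjusted p under 0.05 was reached by 2 in each population (5.88% against 9.72% of all tested genes in MPP, and 6.06% against 16.4% in GMP). Both were lower in Tet2KO in MPP, and 1 was higher and 1 lower in GMP. In MPP 14 were above 0 and 20 below, with a median statistic of -0.125, and in GMP 15 were above and 18 below, with a median of -0.0171. Trim28 had a log2 fold change of -0.03 in MPP (SE 0.111) and -0.05 in GMP (SE 0.0676), and Setdb1 of 0.06 (SE 0.0913) and 0.05 (SE 0.0823), in the authors' deposited tables.

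A list of 36 Zfp genes with described functions held 31 of the expressed ones, of which 23 were above 0 in MPP and 24 in GMP. Zfp521 alone was called, in GMP, which is 3.23% of the 31 tested there, beside 3.96% of all tested genes. The list's median statistics, 0.551 in MPP and 0.508 in GMP, were close to those of all Zfp genes. Zfp143, a promoter-binding activator, had 0.06 in MPP and -0.06 in GMP, Zfp148 had 0.06 and -0.01, and Zfp91, a ubiquitin ligase of NF-kB signalling, had -0.02 and 0.02, as log2 fold changes of the authors' deposited tables. Zfp384, known from gene fusions in human B cell leukaemia, had 0.10 and 0.04, Zfp217, a subunit of corepressor complexes, 0.02 and 0.12, and Zfp335, needed in T cell development, 0.13 and 0.03 in the authors' deposited tables. Larger values without a call were those of Zfp36 (0.07 in MPP and 0.40 in GMP, SE 0.180), Zfp516 (0.26 and 0.29, SE 0.121), Zfp592 (0.04 and 0.21, SE 0.0813) and Zfp281, a factor of pluripotent cells (0.23, SE 0.101, and -0.03), in the authors' deposited tables.

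Runs of neighbouring Zfp genes differed in how their members were placed. With under 200 kb between successive genes, 9 runs held 5 or more members, 75 genes in all. The largest lies on chromosome 13 (67038596 to 67827002, mm10) and holds 16 genes, all with a KRAB box by the broader pattern. In it 13 were above 0 in MPP and 14 in GMP, with median log2 fold changes of 0.15 and 0.16. Its genes Zfp712 (0.36 and 0.34), Zfp493 (0.37 and 0.40), Zfp708 (0.41 and 0.24) and Zfp273 (0.38 and 0.25) had the largest values summed over MPP and GMP, and none was called in the authors' deposited tables. Such copies can share reads: 7 of the 16 had 10% or more of their windows of 75 bases in transcripts of other genes, and Zfp708 had 100%.

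A run of 11 KRAB genes on chromosome 17 (21383748 to 22071168, mm10), from Zfp677 to Zfp943, had 10 genes above 0 in MPP and 8 in GMP, with medians of 0.17 and 0.09. The run around Zfp235 on chromosome 7 (24081924 to 24316666, mm10) had all 7 genes above 0 in GMP, with a median of 0.16, and 5 of 7 in MPP, with a median of 0.07. A run of 6 genes that ends with Zfp629 on chromosome 7 (127233061 to 127615797, mm10) had all 6 above 0 in GMP, with a median of 0.22, and 3 above and 3 below in MPP, with a median of -0.02. All 9 runs had a positive median statistic in GMP, and 6 did in MPP. The genes and runs named in this account of neighbours were picked after their values were seen.

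Of the 249 genes with an annotated coding transcript, 46 had 10% or more of their read-length windows in common with other annotated genes on either strand, and 129 had none. Genes without a shared window had a median statistic of 0.535 in MPP and 0.712 in GMP, and those with 10% or more had 0.671 and 0.420. The 6 called genes shared at most 2.30% (Zfp235).

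The promoters of 4 of the called genes are shown because TET2 acts on cytosines followed by guanine. Of the 250 bases before the start that RefSeq lists first (GRCm38.p6), CG is in capitals:
Zfp398 promoter, chr6:47835411-47835660, plus strand: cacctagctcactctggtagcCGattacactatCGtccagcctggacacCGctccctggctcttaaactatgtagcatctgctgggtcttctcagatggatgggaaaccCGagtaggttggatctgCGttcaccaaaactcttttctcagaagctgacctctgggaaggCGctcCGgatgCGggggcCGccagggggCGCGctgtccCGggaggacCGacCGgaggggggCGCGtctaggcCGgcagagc
Zfp329 promoter, chr7:12818861-12819110, minus strand: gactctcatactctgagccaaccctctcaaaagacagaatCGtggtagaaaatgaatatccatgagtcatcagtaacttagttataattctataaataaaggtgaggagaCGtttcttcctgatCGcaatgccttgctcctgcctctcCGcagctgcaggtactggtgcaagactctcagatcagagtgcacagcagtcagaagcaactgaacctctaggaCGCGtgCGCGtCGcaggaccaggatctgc
Zfp629 promoter, chr7:127615273-127615522, minus strand: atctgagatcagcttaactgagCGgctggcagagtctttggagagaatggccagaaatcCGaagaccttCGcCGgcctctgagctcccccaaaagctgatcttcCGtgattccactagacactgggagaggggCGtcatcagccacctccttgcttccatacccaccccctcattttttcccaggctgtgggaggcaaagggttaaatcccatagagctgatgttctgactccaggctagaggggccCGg
Zfp235 promoter, chr7:24132122-24132371, plus strand: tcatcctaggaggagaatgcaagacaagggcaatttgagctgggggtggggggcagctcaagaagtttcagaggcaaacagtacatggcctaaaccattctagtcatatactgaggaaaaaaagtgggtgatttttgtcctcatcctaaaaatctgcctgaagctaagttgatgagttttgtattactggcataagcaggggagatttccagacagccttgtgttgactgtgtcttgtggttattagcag
The printed stretches hold 17 CG in Zfp398, 9 in Zfp329, 7 in Zfp629 and 0 in Zfp235, whose RefSeq start lies upstream of the GENCODE start given above. The stretch of Zfp629 lies within the run that ends with this gene and reaches to 127615797. Its RefSeq start may thus lie inside the GENCODE gene. CG, which reads the same on both strands, was counted over the full 300 bases of each promoter, 50 of them after the start. A promoter was listed for 205 of the 251 genes. In these the median was 14 CG and 70.7% held 10 or more, against 43.9% of all 27025 promoters and 87.2% of the other genes with a mean of 50 or more in both tables. All 205 held at least 1, as did 94.2% of all promoters. The count is a description of sequence, and methylation was not measured in these data. Against other genes of the same class by promoter CG number, the median Zfp gene was higher by 0.509 in MPP and 0.699 in GMP.

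Families of like genes were set beside the Zfp genes as a description. The list by finger number was taken without regard to the families that follow it, so some genes are counted in both. The 164 other genes with 3 or more C2H2 fingers had 69.4% of tested members above 0 in MPP and 64.6% in GMP, with median statistics of 0.576 and 0.526. Of these, 2 were called higher and 1 lower in MPP (1.88% called, beside 0.616% of all tested genes), and 9 higher and 2 lower in GMP (6.96%, beside 3.96%). In MPP 13 of 14 Zkscan and Zscan genes, which carry a SCAN domain beside the fingers, were above 0, and in GMP 7 of 14. Zbtb genes, whose fingers follow a BTB domain, had 16 of 33 above 0 in MPP and 21 of 32 in GMP, with 1 and 4 called higher (3.03% and 12.5%, beside 0.346% and 1.75% of all tested genes). Zc3h genes, whose fingers bind RNA, had 5 of 13 and 10 of 14 above 0. Differences between families were not tested.

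No Zfp gene passed a test of the difference between its log2 fold changes in GMP and MPP, at an adjusted p of 0.05 over 17660 genes, of which 0.0453% passed. An unadjusted p under 0.05 was reached by 6 of 248 Zfp genes, or 2.42%, against 3.58% of all genes. Errors were treated as independent between the populations, although 3 mice per genotype gave both. The largest difference relative to its error was that of Zfp654, at 0.21 in MPP and -0.22 in GMP (difference of GMP minus MPP -0.43, SE 0.131, adjusted p = 0.401) by the authors' deposited tables. Zfp108 (-0.28 and 0.47), Zfp606 (0.24 and -0.09), Zfp235 (0.04 and 0.59) and Zfp329 (-0.06 and 0.29) followed, from the same 2 authors' deposited tables. With errors correlated at 0.4, Zfp654 passed. The median statistic of the difference over Zfp genes was 0.00935, beside 0.0231 over all genes.

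**Figure D5:**
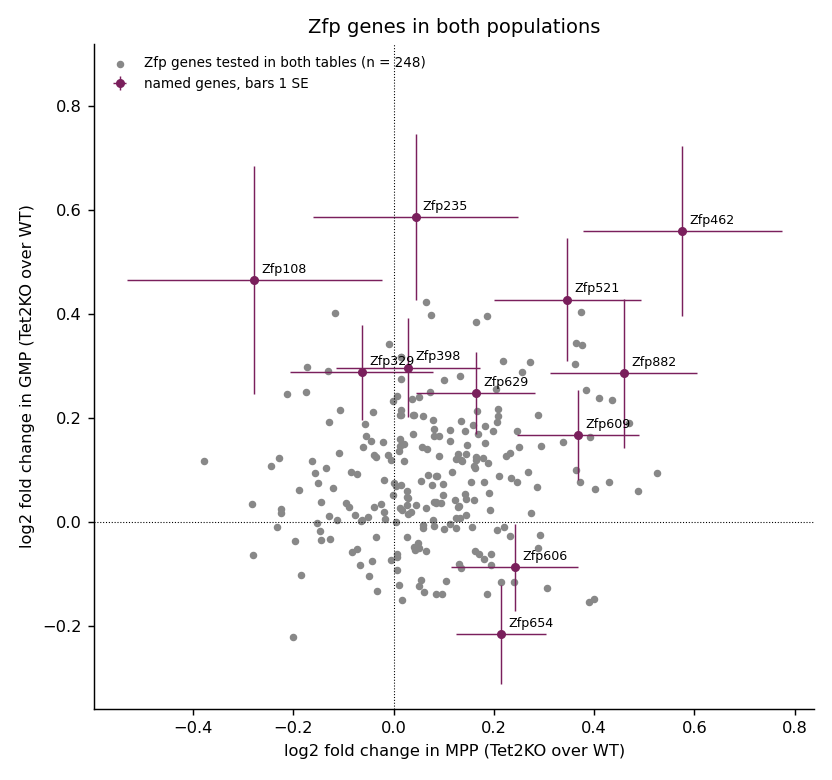
Log2 fold change of Tet2KO over WT in GMP (y axis) and in MPP (x axis) for the 248 Zfp genes tested in both tables; bars on 11 named genes are 1 SE. Most points lie above 0 on each axis, Zfp462, Zfp521 and Zfp882 lie at the upper right, and Zfp654 lies at the lower right with 0.21 and -0.22. The tables share mice.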

How the data were processed

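Total RNA (2 ng) from sorted MPP and GMP was amplified, with nothing stated on strand, and sequenced as single-end reads of 75 bases, per the labels' protocols. The submitters' processing notes name STAR, DESeq2 and the mm10 build. The read counter, the annotation and the versions of these tools are not stated there. The authors' deposited tables hold, per gene, a mean normalized count (a signal averaged over all 8 libraries of a population), the log2 fold change (Tet2KO relative to WT) and its SE, and a p-value with its adjusted value, per the file headers. Recomputed adjusted p-values differed from the deposited ones by at most 2.4e-05 over the genes that carry one. The depth of each library is unknown, and the SE gives the precision. Whether the fold changes were shrunken, which would understate changes of low genes, is not stated. The deposited values have the form of shrunken ones, because genes with almost no counts carry small SEs. In GMP the SE was 0.0932 for Pax5 at a mean of 0.127 and 0.144 for Cd3e at a mean of 0.250. Changes of low genes are thus likely understated.

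A call is a deposited adjusted p under 0.05. Genes without an adjusted p were left out of counts: 1 Zfp gene in MPP (Zfp831) and 2 in GMP (Zfp182 and Zfp951), all marked as outliers. The value of 1 marker of other cells is not reported here. The difference between populations was the difference of log2 fold changes over the root of the summed squared SEs, with a two-sided normal p and Benjamini-Hochberg adjustment. Positions, transcripts and fingers come from GENCODE vM21 (mm10), using the transcript with the longest coding sequence, and promoters from RefSeq. Fingers were counted by spacing of cysteines and histidines (2 to 4 residues, 12 residues, 3 to 5 residues between them). The members and lists were chosen with earlier results of these data known. Named genes were the called ones, the 6 highest and 6 lowest statistics, the 5 highest means per table, the 5 largest differences, the 3 genes on either side of the threshold and a list of genes with described roles. The calculation of calls, class differences and population differences was tested on simulated data. The tools were Python 3.11.15, with scipy 1.17.1, pandas 2.3.3, numpy 2.4.6 and, for figures, matplotlib 3.10.9.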

Additional observations from a re-analysis of the deposited data

How the results depend on the processing

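The number of Zfp genes called in MPP was 0 at an adjusted p of 0.05 (DESeq2, with 15 at an unadjusted p under 0.05) and under every alternative run except a minimum mean of 10, where it was 1, Zfp105, named after its value was seen (1.42, SE 0.375, mean 12.7 in the authors' deposited table). In GMP it was 6, and 3 when p-values were adjusted over every gene with a fold change and 0 with an empirical null, whose statistic is divided by the spread of 1.35 over all genes. A minimum mean of 10 added Zfp711 in GMP (1.22, SE 0.281, mean 33.6 in the authors' deposited table). The median statistic of Zfp genes lay between 0.424 and 0.512 in MPP and between 0.614 and 0.654 in GMP, and relative to genes of the same class between 0.465 and 0.603 in MPP and between 0.669 and 0.943 in GMP. Taken on log2 fold changes instead, these medians were 0.0730 and 0.0784, and against genes of the same class 0.0833 and 0.0893. For the difference between populations, 1 Zfp gene passed with errors correlated at 0.4 and none at 0.2. No paired analysis was possible because the tables hold no values per library, and leaving out single libraries was not run for the same reason. Changes of the size of the median Zfp gene lie within the error of a single gene at this precision.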
